A study of Rattus norvegicus with 25 samples.

Results

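Young rats raised on a diet supplemented with pyrroloquinoline quinone (PQQ) were compared with rats raised the same way and then switched for 48 h to the same basal diet without PQQ. The comparison used 9 of the 25 liver arrays of the study. There were 3 depletion arrays and 6 supplemented arrays, and because supplemented 5 and 6 were nearly identical they were averaged, which left 3 depletion and 5 supplemented samples. All were male Sprague-Dawley rats from dams that received the PQQ diet (given as 2 mg per g diet) during the last 10 days of gestation. The pups were then kept on their dam's diet, and the switch was made at 6.5 weeks. The label's second statement of the dietary amount, 6.67 nmol per g, is not the same quantity. The remaining arrays, which entered the fit to estimate the spread, came from rats fed the deficient diet throughout (6), from deficient rats that received intraperitoneal PQQ over 36 h, 1.5 mg per kg in each 12 h (repletion, 4), and from rats on laboratory chow (6, of which arrays 1 and 2 were nearly identical and averaged). RNA was not pooled, so each sample was taken as 1 rat. Nothing used here states the litter, the feeding state or the time of killing.

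PQQ is a redox-active quinone that serves as an enzyme cofactor in bacteria and reaches mammals through food. In rodents, dietary PQQ has been linked to mitochondrial content, lipid handling and redox signalling. The liver is a main site of fatty acid oxidation in mitochondria and peroxisomes, of cholesterol synthesis and of retinoid storage, and many of its transcripts vary with feeding and time of day. Levels come from whole liver, so fewer cells of a type and less RNA per cell cannot be told apart.

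The genes below chosen to stand for fat oxidation, retinoid signalling, sugar metabolism and sterol synthesis were Hacl1, Rarb, Pfkfb1 and Lss. Their promoters are shown from 250 bases before to 50 bases after the annotated start, 5′ to 3′ on the gene's strand, from RefSeq (GRCr8). Capitals mark a motif match. Rarb lies at chr15:11336142-11336441 on the plus strand, Hacl1 at chr16:6869361-6869660 on the minus strand, Pfkfb1 at chrX:22941926-22942225 on the plus strand and Lss at chr20:12118181-12118480 on the minus strand.
Rarb: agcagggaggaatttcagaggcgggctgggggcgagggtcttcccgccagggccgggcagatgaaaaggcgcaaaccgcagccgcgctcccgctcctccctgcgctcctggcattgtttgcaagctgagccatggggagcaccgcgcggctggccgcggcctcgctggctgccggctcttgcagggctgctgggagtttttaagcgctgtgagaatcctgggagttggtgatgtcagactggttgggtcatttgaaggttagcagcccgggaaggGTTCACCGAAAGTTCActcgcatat
Hacl1: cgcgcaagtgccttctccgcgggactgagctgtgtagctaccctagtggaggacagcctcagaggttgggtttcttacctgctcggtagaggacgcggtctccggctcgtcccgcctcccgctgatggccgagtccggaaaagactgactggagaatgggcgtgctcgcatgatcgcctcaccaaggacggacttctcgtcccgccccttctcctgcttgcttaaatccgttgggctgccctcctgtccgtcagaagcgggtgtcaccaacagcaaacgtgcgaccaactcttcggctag
Pfkfb1: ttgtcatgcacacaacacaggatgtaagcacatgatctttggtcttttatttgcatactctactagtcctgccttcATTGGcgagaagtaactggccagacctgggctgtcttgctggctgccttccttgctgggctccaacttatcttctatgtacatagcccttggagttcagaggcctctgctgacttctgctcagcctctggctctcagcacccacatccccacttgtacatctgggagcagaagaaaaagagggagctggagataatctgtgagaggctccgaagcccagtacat
Lss: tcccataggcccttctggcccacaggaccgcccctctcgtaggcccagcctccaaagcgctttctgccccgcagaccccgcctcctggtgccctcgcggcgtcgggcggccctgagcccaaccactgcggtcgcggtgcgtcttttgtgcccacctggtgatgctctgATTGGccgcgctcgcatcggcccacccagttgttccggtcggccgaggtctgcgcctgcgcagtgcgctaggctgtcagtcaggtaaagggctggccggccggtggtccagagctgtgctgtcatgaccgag

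The motifs searched on both strands were CACGTG (E-box, found in 6.42% of 33469 promoter windows), TTANNTAA (D-box, 5.84%), DR1 (AGGTCA repeated after 1 base, 0.0538%), AGGTCA alone (a single nuclear receptor site, 16.2%, which DR1 contains), TCACNCCAC (sterol response element, 1.12%), DR5 (GTTCA and, after 5 bases, AGTTCA, 0.0269%) and CCAAT (37.5%). DR5 is the kind of repeat to which retinoic acid receptors bind. The Rarb window held a DR5 match at position 26 after the start. Such a match was present in 9 of the 33469 windows, this one included. That count is for these exact letters, which differ from the AGGTCA used for DR1, and other forms of the repeat were not searched. They are the letters of this Rarb site, so the count does not measure how unusual the match is. The Pfkfb1 and Lss windows held CCAAT on the opposite strand, read here as ATTGG, at positions -174 and -82. None of the searched letters was found in the Hacl1 window. A match describes the letters and not a bound site.

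Of 9911 gene probes per array, 5127 (3721 named genes) were bright enough to be tested. The test was limma's moderated test on log2 values with Benjamini-Hochberg adjustment over all probes tested, two-sided at 0.05, and p-values measure the spread between these samples. In all 20 probes passed (0.39% of those tested), 7 higher (0.137%) and 13 lower (0.254%) in depletion. They stood for 17 named genes, 5 higher and 12 lower, and 3 probes without a gene name. Their log2 differences had sizes of 0.46 to 1.55, against a median difference of 0.01 and a median SE of 0.17 over all probes tested. In 19 of the 20 the groups did not overlap, whereas 671 probes tested (13.1%) showed such separation, 324 with depletion higher (6.32%) and 347 with depletion lower (6.77%). At an unadjusted p under 0.05 there were 755 probes (14.7%), 381 higher (7.43%) and 374 lower (7.29%).

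**Figure D1:**
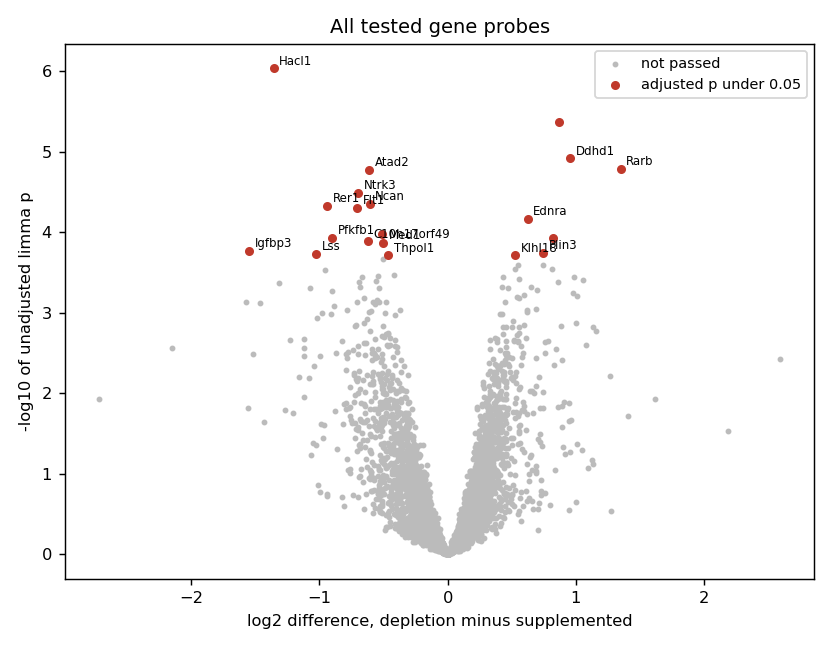
Each point is 1 of 5127 tested probes, with the log2 difference (depletion minus supplemented, 3 and 5 samples) on the x axis and -log10 of the unadjusted limma p on the y axis. The 20 probes that passed are red, and the 17 with a gene name carry it; Hacl1 has the smallest p and Igfbp3 the most negative difference among them.

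By their shared defective spots the arrays formed 5 sets (overlap 0.646 to 0.956 inside a set, 0.142 to 0.327 across sets). The depletion arrays shared set 4 with deficient 6 alone, and the supplemented arrays lay in sets 1 to 3, so no within-set value exists (deficient 1 to 5 lay in set 3, repletion in set 5) and diet and array set are linked only through deficient 6. That sample deviated from its group's median by 0.841 (root mean square log2) against 0.165 to 0.416 in all others, and its median intensity was 120.35 against 178.39 to 281.01 in depletion and 175.25 to 228.24 in supplemented arrays. Of the 20 probes, 7 (35%) had deficient 6 beyond deficient 1 to 5 on the depletion side, against 44.1% of all tested probes. On the opposite side it lay beyond them in 5 of the 20 (25%), against 31.9% of all tested probes. With the set as a random block 0 probes passed in limma (1303 at an unadjusted p under 0.05, lowest adjusted p 0.0506). With it as a fixed block 1439 passed, among them 11 of the 20, and every such value rests on deficient 6. Without deficient 6 in the fit 151 passed, all 20 among them. With median scaling of the arrays in place of quantiles, the median over the tested probes was 0.15, and the calls were 187 higher and 36 lower (83.9% higher, against 35% here).

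The count also turned on single rats. It was 2 without depletion 2 (Hacl1 and 1 unnamed probe), 3 without supplemented 4 (Hacl1, Ddhd1 and that probe), 6 without depletion 1, 7 without supplemented 3 and 12 without supplemented 1. All 20 probes kept their sign in 24 alternative settings, except Ntrk3 in 1 of them. Hacl1 passed in 23 of the 24, Ddhd1 in 21, Rarb in 19, Atad2 in 18, and Ednra and Flt1 in 17, while Lss passed in 11.

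**Figure D2:**
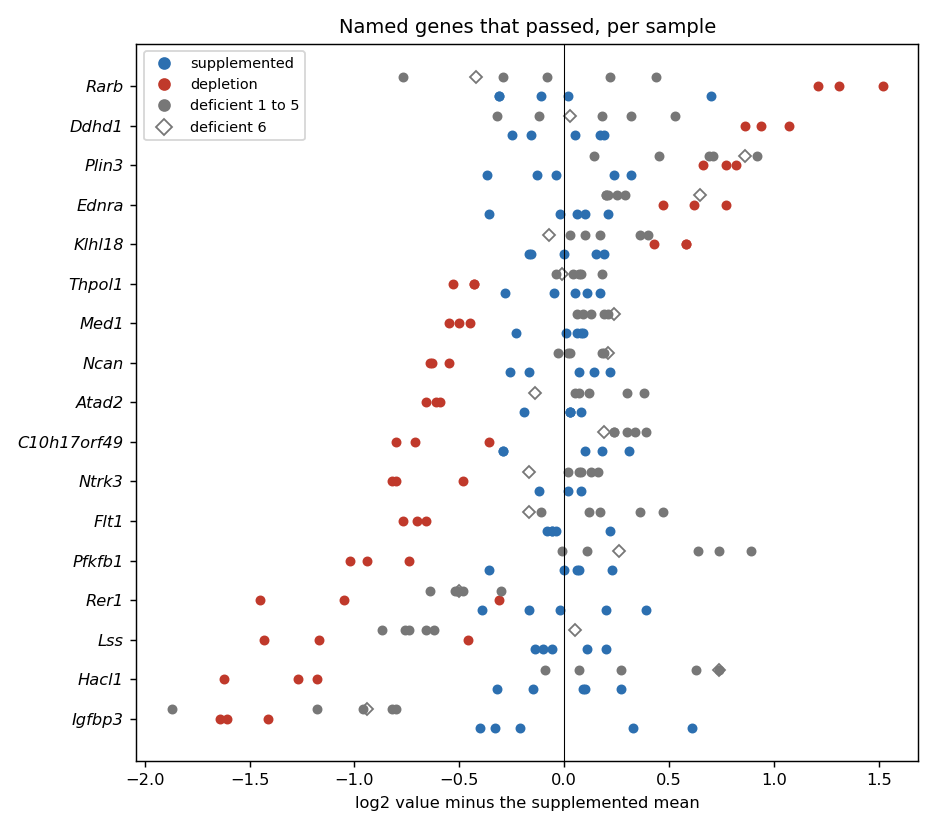
Each row is 1 of the 17 named genes that passed, and the x axis is each sample's log2 value minus the supplemented mean. Red points are the 3 depletion samples, blue the 5 supplemented, grey deficient 1 to 5 and the open diamond deficient 6; Rer1 is the only gene whose red and blue points overlap.

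Peroxisomal fat oxidation was led by Hacl1, the thiamine pyrophosphate-dependent lyase that cleaves 2-hydroxyacyl-CoA in the alpha-oxidation of branched and hydroxylated fatty acids. Its log2 level was 12.19, 12.10 and 11.75 in depletion 1 to 3, and 13.46, 13.05, 13.47, 13.64 and 13.22 in supplemented 1 to 5. Every depletion sample lay below every supplemented one. The gene was 2.56-fold lower (difference in log2 of -1.36, SE 0.20, limma adjusted p = 0.00475). Over all samples of the other groups, the mean log2 level was 13.76 ± 0.36 (SD, n = 6) in deficient, 11.75 ± 0.21 (n = 4) in repletion and 12.98 ± 0.29 (n = 5) in chow rats. Repletion rats thus lay with depletion rats at the low end, and deficient rats at the high end. Deficient 6, the sample of the depletion array set, was at 14.11 and so not on the low side. Depletion differed from deficient by -1.75 (adjusted p = 2.26e-05), and the difference from supplemented was -1.84 with the array set as a fixed block and -1.08 with median scaling.

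Of 15 tested genes of alpha- and peroxisomal oxidation, 1 fell, none rose and 14 did not pass, and the list's median was -0.02. Acox2, the oxidase for branched-chain acyl-CoA and bile acid precursors, was at 10.61, 10.52 and 10.51 in depletion and at 12.34, 11.91, 12.04, 11.27 and 11.33 in supplemented rats. These groups did not overlap, and the difference of -1.23 did not pass (SE 0.35, adjusted p = 0.1). Ehhadh, the bifunctional enzyme of peroxisomal beta-oxidation, was at 0.51, the racemase Amacr at -0.53 and the peroxisome assembly factor Pex3 at 0.27, none of them past the test. Of 4 tested genes of thiamine use and handling, Hacl1 fell and 3 did not pass, with a median of -0.06. These 3 were the thiamine transporter Slc19a2 (0.41), Bckdhb of branched-chain keto acid oxidation (0.21, and -0.13 with array weights) and Dhtkd1 (-0.32).

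Mitochondrial fatty acid oxidation and ketogenesis had 16 tested genes, of which 0 passed in limma and 0 had an unadjusted p under 0.05. Over all probes tested these shares were 0.39% and 14.7%. Their differences ran from -0.29 to 0.28, with a median of 0.03. Decr1, which handles unsaturated fatty acids, was at 0.28, the long-chain dehydrogenase Acadl at 0.19 and Cpt1a, the entry step for long-chain fatty acids, at 0.04.

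Retinoid signalling was represented by Rarb, the retinoic acid receptor beta, a nuclear receptor whose own gene is a known target of retinoic acid. Its log2 level was 11.04, 11.25 and 10.94 in depletion rats and 9.75, 10.43, 9.62, 9.42 and 9.42 in supplemented rats. All depletion samples lay above all supplemented samples, of which supplemented 2 was the highest. The gene was 2.55-fold higher (log2 difference 1.35, SE 0.24, adjusted p = 0.0172). Means were 9.58 ± 0.44 (SD, n = 6) in deficient, 10.89 ± 0.29 (n = 4) in repletion and 9.87 ± 0.27 (n = 5) in chow rats, so repletion was again close to depletion. Deficient 6 was at 9.31, inside the range of deficient 1 to 5 (8.96 to 10.17). A second, dim Rarb probe was not tested and had means of 6.24 and 5.89.

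Of 9 tested genes of retinoid receptors and handling, Rarb rose and 8 did not pass (median 0.09). The retinol dehydrogenase Rdh7 was at -0.88 (adjusted p = 0.212), and 9.72 in supplemented 5 lay within the depletion range. Rxrg, a partner receptor, was at 0.39 (adjusted p = 0.154) and the retinal dehydrogenase Aldh1a1 at 0.26.

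**Figure D3:**
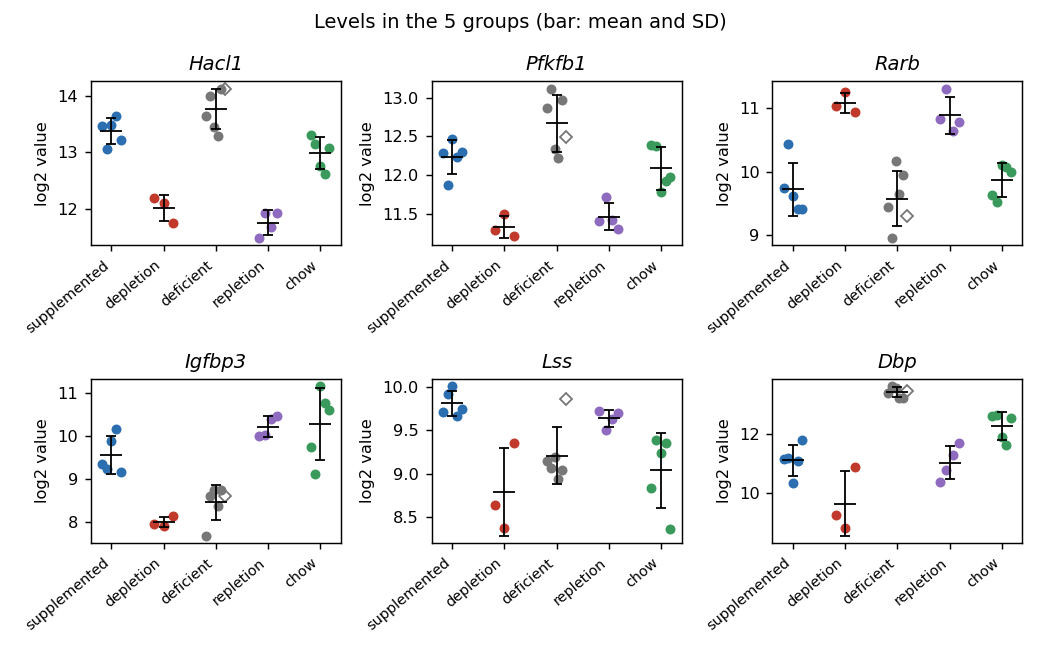
Log2 level (y axis) of 6 genes in each sample of the 5 groups (x axis), with mean and SD as bars and deficient 6 as an open diamond. For Hacl1, Pfkfb1 and Rarb the depletion and repletion points lie together, apart from supplemented and deficient points; Dbp is highest in deficient rats.

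Sugar metabolism included Pfkfb1, the liver bifunctional enzyme that makes and removes fructose 2,6-bisphosphate, a switch between glycolysis and glucose production. Its log2 level was 11.29, 11.49 and 11.21 in depletion and 12.29, 11.87, 12.46, 12.23 and 12.30 in supplemented rats. The groups did not overlap, and it was 1.87-fold lower (difference in log2 of -0.90, SE 0.19, adjusted p = 0.0462). Mean levels were 12.67 in deficient, 11.46 in repletion and 12.09 in chow rats, the same order as for Hacl1. The difference was -0.72 with the array set as a fixed block, which did not pass.

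Of 15 tested genes of the fasting response of glucose and amino acid metabolism, Pfkfb1 fell, none rose and 14 did not pass (median -0.06). Pck1 and G6pc1, enzymes of glucose production, were at -0.06 and -0.03, the histidine-degrading enzyme Hal at -0.64 and the tyrosine-degrading enzyme Tat at -0.50, none of which passed.

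Cholesterol synthesis was represented by Lss, the synthase that closes the sterol rings to form lanosterol. Its log2 level was 8.64, 8.38 and 9.35 in depletion and 9.71, 9.92, 10.01, 9.67 and 9.75 in supplemented rats. All depletion samples were lower, depletion 3 the least, and the gene was 2.03-fold lower (difference in log2 of -1.02, SE 0.23, adjusted p = 0.0496). A second Lss probe was at -0.69 and did not pass (adjusted p = 0.141). Rats on the deficient diet throughout differed from supplemented by -0.60 (adjusted p = 0.0864), with deficient 6 at 9.86 against 8.94 to 9.19 in the others. Chow rats differed from the same supplemented samples by -0.77 (adjusted p = 0.0207) and repletion rats by -0.18 (adjusted p = 0.603). With the array set as a fixed block the depletion difference was -1.70.

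Of 15 tested genes of sterol synthesis and uptake, Lss fell, none rose and 14 did not pass (median -0.14). Sqle, the epoxidase just before Lss in the pathway, was at 8.77, 8.30 and 8.43 in depletion and at 9.27, 9.07, 9.41, 9.12 and 9.42 in supplemented rats. The groups did not overlap, yet the difference of -0.76 did not pass (adjusted p = 0.164). Idi1, the isomerase of isoprenoid units, was at -0.61 (adjusted p = 0.209). Insig2, which retains the sterol sensor in the endoplasmic reticulum, was at 0.58 (adjusted p = 0.337).

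Fatty acid and triglyceride synthesis had 14 tested genes, of which 0 passed in limma, while 5 had an unadjusted p under 0.05, 4 of them higher. Over all probes tested 14.7% had such a p, 7.43% higher and 7.29% lower in depletion. The list's median was 0.31, the farthest from 0 among the 20 pathway lists together with the clock list at -0.31. With median scaling it was 0.54, where the median over all tested probes was 0.15. Fasn, the fatty acid synthase, was at 12.52, 12.23 and 12.91 in depletion and at 10.51, 13.02, 11.71, 10.91 and 11.90 in supplemented rats. Supplemented 2 lay above every depletion sample and the other supplemented samples below, and the difference of 0.95 did not pass (SE 0.38, adjusted p = 0.237). Me1, which supplies reducing power for this synthesis, was at 0.74, Acly, which supplies acetyl-CoA, at 0.69 and the elongase Elovl6 at 0.65. Lpin1, a phosphatidate phosphatase, was at -0.98 (adjusted p = 0.297), and at 0.19 with the array set as a fixed block.

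Among genes of lipid storage, Plin3, a coat protein of lipid droplets, was at 10.48, 10.53 and 10.37 in depletion and at 9.34, 9.95, 9.58, 9.67 and 10.03 in supplemented rats. It was 1.68-fold higher with no overlap (log2 difference 0.75, SE 0.17, adjusted p = 0.0496). Compared with the same supplemented samples, deficient rats differed by 0.62 (adjusted p = 0.0146). Repletion rats differed from them by 0.48 (adjusted p = 0.0332) and chow rats by 0.56 (adjusted p = 0.0216). The supplemented mean of 9.71 was thus below the means of all other groups, with or without PQQ. With the array set as a fixed block the depletion difference was 0.34. Cidea, a lipid droplet protein that promotes droplet fusion, was at 8.16, 9.05 and 7.98 in depletion and at 7.03 to 7.66 in supplemented rats. Its difference of 1.06 did not pass (SE 0.25, adjusted p = 0.0586).

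In phospholipid turnover, Ddhd1, a phospholipase A1 that prefers phosphatidic acid, was at 8.26, 8.05 and 8.13 in depletion and at 6.94, 7.38, 7.36, 7.24 and 7.03 in supplemented rats. Every depletion sample was above every supplemented one, and the gene was 1.94-fold higher (log2 difference 0.96, SE 0.17, adjusted p = 0.0172). It also stood above the other groups, with means of 7.29 in deficient, 7.45 in repletion and 6.99 in chow rats. The difference from deficient rats was 0.85 (adjusted p = 0.00282). Of 14 tested genes of phospholipases and phospholipid synthesis, Ddhd1 rose and 13 did not pass (median 0.13). The choline kinase Chkb was at 0.54 (-0.35 with the array set as a fixed block) and the lysophospholipase Lypla2 at 0.41. Selenoi, the selenoprotein that makes phosphatidylethanolamine, was at 9.65, 9.78 and 9.87 in depletion against 8.55 to 9.12 in supplemented rats, a 2-fold higher level that did not pass (adjusted p = 0.087).

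Igfbp3, the main carrier of insulin-like growth factors in plasma, made in liver chiefly by non-parenchymal cells, had the most negative difference of the probes that passed. Its log2 level was 7.95, 7.92 and 8.15 in depletion and 9.35, 9.23, 9.89, 10.17 and 9.16 in supplemented rats. The groups did not overlap, and it was 2.92-fold lower (difference in log2 of -1.55, SE 0.34, adjusted p = 0.0496). A second probe was at -0.51 and did not pass (adjusted p = 0.209). Deficient rats differed from the same supplemented samples by -1.09 (adjusted p = 0.0386), and repletion rats had a mean of 10.22 and chow rats of 10.28. The depletion and deficient means were lower than the means of the 3 other groups.

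Of 11 tested genes of receptor tyrosine kinase and endothelin signalling, 1 rose, 2 fell and 8 did not pass (median 0.01). Over all probes tested 0.137% rose and 0.254% fell, and this list was chosen with earlier results of these data known. Ednra, the endothelin A receptor, which mediates contraction of vascular and stellate cells, was at 9.52, 9.67 and 9.37 in depletion and at 8.54 to 9.11 in supplemented rats. It was 1.54-fold higher (log2 difference 0.63, SE 0.13, adjusted p = 0.0349). Deficient 6 was at 9.55, with the depletion samples and above deficient 1 to 5 (9.10 to 9.19), and with the array set as a fixed block the difference was 0.05.

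Flt1, a receptor for vascular endothelial growth factor found on endothelium, was at 8.36, 8.43 and 8.47 in depletion and at 9.09, 9.07, 9.05, 9.07 and 9.35 in supplemented rats. It was 1.63-fold lower with no overlap (log2 difference -0.71, SE 0.14, adjusted p = 0.0285), and at -0.41 with the array set as a fixed block. Deficient 6 was at 8.96, just under deficient 1 to 5 (9.02 to 9.60). The other 2 Flt1 probes were dim and not tested, with differences of 0.02 and 0.01. Ntrk3, the neurotrophin-3 receptor, was 1.62-fold lower (difference in log2 of -0.70, SE 0.13, adjusted p = 0.028), but the spots of supplemented 2 and 3 were defective, which left 3 supplemented samples, and with defective spots kept it reversed to 0.767. Of the ligands, Vegfb was at 0.69 (adjusted p = 0.0735, and -0.15 with the array set as a fixed block) and Vegfa at 0.02.

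In the secretory pathway, Rer1, which returns membrane proteins from the Golgi to the endoplasmic reticulum, was at 9.48, 8.34 and 8.74 in depletion and at 9.99, 9.77, 10.18, 9.62 and 9.40 in supplemented rats. Depletion 1 lay above supplemented 5, so the groups overlapped. The gene was 1.92-fold lower (difference in log2 of -0.94, SE 0.19, adjusted p = 0.0285). Of 26 tested genes of transport and folding, Rer1 fell, none rose and 25 did not pass (median -0.14). With median scaling the list's median was 0.11, where the median over all tested probes was 0.15. Sec22b, a fusion protein of the same route, was at -0.53 (adjusted p = 0.0586), the disulfide isomerase P4hb at -0.51 and the chaperone Hspa5 at -0.45.

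Among nuclear proteins, Atad2, a bromodomain ATPase of chromatin, was at 7.98, 7.91 and 7.96 in depletion and at 8.60, 8.38, 8.65, 8.60 and 8.60 in supplemented rats. The depletion values lay close together and all below the supplemented values, a 1.53-fold lower level (log2 difference -0.61, SE 0.11, adjusted p = 0.0172). Repletion and chow means of 8.07 and 7.89 were near the depletion mean of 7.95, while deficient rats were at 8.70, and the difference was -0.32 with the array set as a fixed block. Med1, the Mediator subunit that contacts nuclear receptors, was 1.41-fold lower (difference in log2 of -0.50, SE 0.10, adjusted p = 0.0462). C10h17orf49 differed by -0.62 (adjusted p = 0.0462). Of 6 tested genes of cell cycle and replication, Atad2 fell and 5 did not pass (median -0.01).

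The remaining named genes that passed were Klhl18, Ncan and Thpol1. Klhl18, an adaptor of a ubiquitin ligase, was 1.44-fold higher (log2 difference 0.53, SE 0.12, adjusted p = 0.0496). Ncan, a chondroitin sulfate proteoglycan best known from brain, was 1.52-fold lower, at 7.94, 7.86 and 7.85 against 8.23 to 8.71 (log2 difference -0.61, SE 0.12, adjusted p = 0.0285). Thpol1 was 1.38-fold lower, at 7.58, 7.68 and 7.68 against 7.83 to 8.28 (log2 difference -0.46, SE 0.10, adjusted p = 0.0496). The unnamed probes were at 0.87, 0.82 and -0.51.

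Other differences of similar or larger size did not pass. Rec114, a meiotic recombination protein, was at 8.43, 8.15 and 8.77 in depletion and at 6.51 to 7.16 in supplemented rats, a difference of 1.62 with no overlap (SE 0.59, adjusted p = 0.192). Ctsh, the lysosomal protease cathepsin H, was at 9.75, 6.49 and 6.47 in depletion and at 10.10 to 10.53 in supplemented rats, a difference of -2.72 (SE 0.99, adjusted p = 0.192). Deficient rats spread from 6.54 to 10.42 and chow rats from 6.10 to 10.16 on this probe, so single rats were high or low in 3 groups. Hs6st1, which sulfates heparan sulfate, was at 6.96, 7.07 and 8.03 against 8.17 to 8.84 (difference -1.32, adjusted p = 0.0586). Rbm39, a splicing factor, was at 8.17 in depletion 1 and at 10.77 and 10.63 in depletion 2 and 3, and its other probe was at -0.05. Mapk14, the stress kinase p38 alpha, was at 7.52, 7.44 and 7.53 against 7.90 to 8.93 (difference -0.96, adjusted p = 0.058). The nucleoside transporter Slc28a2 was at 0.89 (adjusted p = 0.116), and the matrix protein Dpt at 0.86 (adjusted p = 0.0586).

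Clock genes, which vary with time of day, did not pass. Dbp, a clock output factor, was at 9.26, 8.81 and 10.87 in depletion and at 11.14, 11.19, 10.34, 11.07 and 11.80 in supplemented rats. Depletion 3 lay within the supplemented range, and the difference was -1.46 (SE 0.37, adjusted p = 0.0652). Rats on the deficient diet throughout had a mean of 13.40, so depletion differed from them by -3.76 (adjusted p = 3.48e-06). The clock activator Bmal1 had means of 9.07 in depletion, 8.40 in supplemented and 6.95 in deficient rats, and differed by 0.67 from supplemented (adjusted p = 0.22) and by 2.12 from deficient rats (adjusted p = 4.69e-05). Depletion rats thus stood on the far side of supplemented rats from deficient rats in these means. Usp2, a clock-controlled protease, was at -1.12 (adjusted p = 0.114), Nr1d2 at -0.31 and Cry2 at 0.08 (-0.71 with the array set as a fixed block), and the 5 tested clock genes had a median of -0.31.

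Mitochondrial and redox genes are those most often linked to PQQ in rodents. Of 21 tested genes of oxidative phosphorylation, 0 passed in limma and 0 had an unadjusted p under 0.05 (median 0.13), and of 11 genes of mitochondrial biogenesis 0 passed and 1 had such a p. That gene was Mfn2, a fusion protein of the outer membrane, at 0.29 with supplemented 3 missing. Tfam, which maintains mitochondrial DNA, was at -0.01 (SE 0.13), and at 0.57 with the array set as a fixed block. Of 19 thioredoxin, glutathione and antioxidant genes, 0 passed and 2 had an unadjusted p under 0.05, the mitochondrial dismutase Sod2 (0.55) and Gclm of glutathione synthesis (-0.48). Sod2 was at 9.53 in supplemented 1 and at 10.98 to 11.21 in the other supplemented samples, against 11.20 to 11.53 in depletion. Txn1, the thioredoxin itself, was at 0.04 (-0.01 without supplemented 5) and its inhibitor Txnip at -0.21. Txnrd1, Ppargc1a, Jak2 and Per2 had 1 probe each, none bright enough to be tested.

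**Figure D4:**
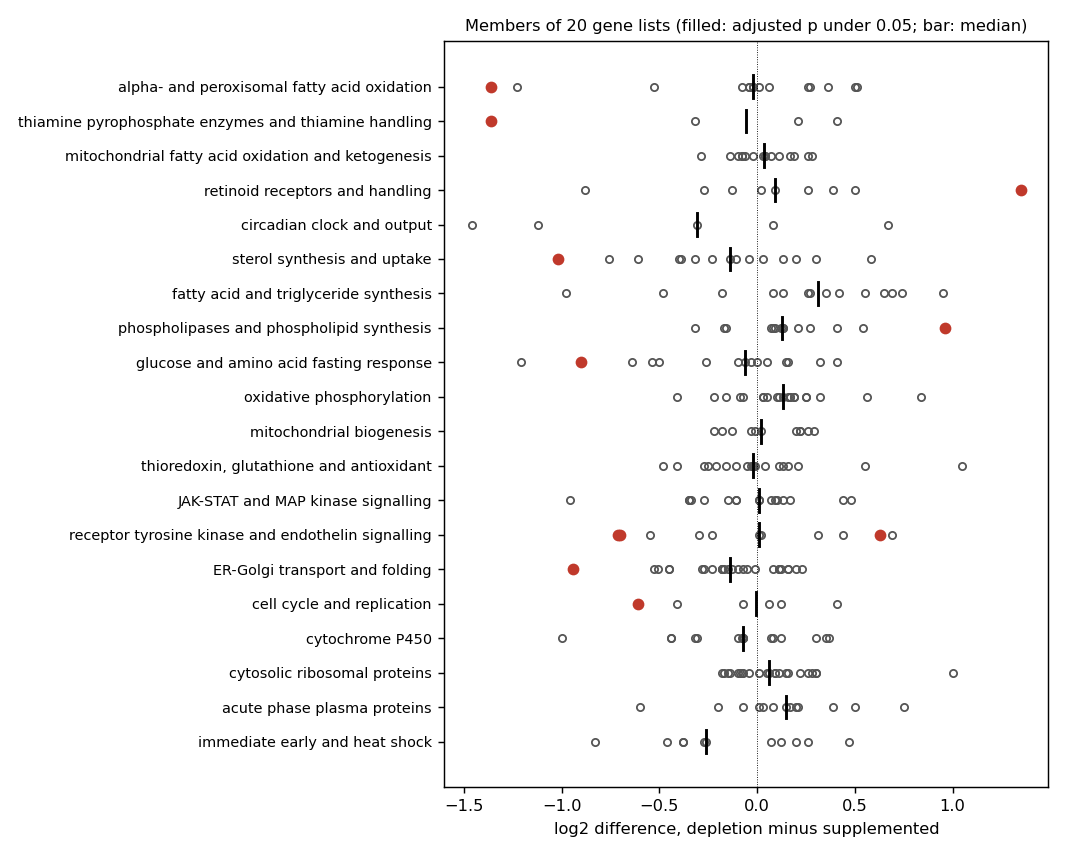
Each circle is a tested gene of 1 of 20 pathway lists, placed by its log2 difference, depletion minus supplemented (x axis). Filled red circles passed at an adjusted p under 0.05 and black bars are list medians. The 3 filled circles of the receptor list are Flt1, Ntrk3 and Ednra. The lists were chosen with earlier results of these data known, so their counts of filled circles are not compared.

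Signalling by JAK-STAT and MAP kinases had 17 tested genes, of which 0 passed in limma and 2 had an unadjusted p under 0.05 (median 0.01). Stat3 was at -0.35 by its brightest probe and at 0.01 by another. Among 16 cytochrome P450 genes 0 passed and 2 had such a p (median -0.07). These were Cyp1b1 at -0.31 and Cyp1a2 at -0.44, and the latter turned to 0.41 with the array set as a fixed block. Ribosomal protein genes (23, median 0.06) and acute phase genes (13, median 0.15) had 0 calls, with 0 and 1 genes at an unadjusted p under 0.05. Immediate early and heat shock genes had 0 calls and 3 with such a p (11 genes, median -0.26), against 14.7% of all probes tested. Among those 3 were the chaperone Hspa8 at -0.83 (adjusted p = 0.1) and the stress factor Atf3 at -0.46 (adjusted p = 0.0983).

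The liver label was checked against hepatocyte markers: all 8 of them on the array were above background. Their summed linear level was 153238 to 155926 in depletion and 159538 to 169326 in supplemented samples, lower in each depletion sample. Kupffer cell markers (7 of 7 above background) summed to 13837 to 21144 and 15730 to 19225. Endothelial markers (7 of 7), which include Flt1, summed to 4732 to 6370 and 6054 to 7467, and stellate and fibroblast markers (7 of 8, Lum not above background) to 12510 to 16598 and 13562 to 19745. Cholangiocyte markers (3 of 3) summed to 1344 to 1560 and 1063 to 1359, erythroid markers (3 of 3) to 1340 to 1699 and 1567 to 2301, and neutrophil and mast cell markers (4 of 4) to 650 to 795 and 602 to 1099. Of 9 lymphocyte markers 6 were above background and Cd4, Cd8a and Gzmb were not, with sums of 972 to 1079 and 989 to 1151. The part of these markers in the results was not tested. Of the cell type lists with tested members, the endothelial one had 1 call, Flt1, and the others 0 in limma, with at most 2 members of a list at an unadjusted p under 0.05, while no lymphocyte marker was bright enough to be tested.

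Over all 23 samples, the levels most like those of Hacl1 were of Pfkfb1 (Pearson r = 0.924), the phosphatase Ptp4a1 (0.878), Tax1bp1 (0.873), Utp3 (0.865) and Sar1b (0.859), a GTPase of transport vesicles. The points share arrays, groups and array sets. Of the 5, Pfkfb1 passed between depletion and supplemented rats. Ptp4a1 was at 10.76, 10.98 and 10.60 in depletion and at 11.31 to 11.69 in supplemented rats, a difference of -0.72 that did not pass (adjusted p = 0.148). Tax1bp1, Utp3 and Sar1b were at -0.37, -0.30 and -0.28, and Sar1b was at 0.01 with median scaling.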

How the data were processed

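Liver RNA of individual rats was hybridized to CodeLink UniSet Rat I single-colour arrays, per the labels. The deposited scanner files hold, per the file headers, spot intensity before and after subtraction of local background, that background's intensity, and a 0 or 1 flag (unit other). The arrays are not normalized to each other there. The authors' deposited value table holds a processed signal (linear, its normalization not given in the sources used), an alternative here. Spots with the flag are missing in that table and were set to missing (54 to 146 in the 9 arrays). Of 10399 spots, 488 controls were left out after background correction.

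Correction of the background used normexp in limma with an offset of 50, followed by quantile normalization and log2. Tested probes exceeded their array's median in at least 50% of depletion or of supplemented samples. Above background means more than 3 MADs over the median of the bacterial controls (7 kinds at background), and held for 85.0% to 90.2% of probes. Of 9911 probes, 7356 had a single symbol from the platform annotation or the probe's accession, updated through RefSeq, 86 had several and 2469 none. Those without a single symbol were tested but not named, and the brightest probe stands for a gene. Near-identical arrays (spread of log2 ratios under 0.15; supplemented 5 and 6 at 0.106, other supplemented pairs 0.229 to 0.308) were averaged. Array sets joined arrays whose defective spots overlapped by over 0.5.

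All 5 groups (23 samples) entered 1 limma 3.58.1 fit in R 4.3.3. On simulated data with 200 of 5127 probes changed, 23.9% of log2 changes of 0.5, 76.1% of 1 and 95.5% of 2 were recovered in this comparison, and 3.7% of calls were false. How far these shares hold with differences between array sets was not tested. In the measured data the correlation within array sets, fitted for the random block, was 0.542. Replicate numbers did not pair the samples (correlations of same-numbered deviations -0.107, -0.0355 and -0.0773). Named genes were every named gene that passed, up to 10 higher and 10 lower genes by size among those with unadjusted p under 0.05 and no overlap, up to 4 members of each list, fixed redox and clock genes, and the 5 genes most like Hacl1, and the text gives a selection. List members named beyond these were chosen after their values were seen. A few of them are not reported here. The comparison, the genes and the 20 pathway and 8 cell type lists were chosen with earlier results of these data known. Alternatives changed background, normalization, filter, flag, samples, weights, blocks and threshold. Tables and plots were made in Python 3.11.15 with pandas 2.3.3, numpy 2.4.6 and matplotlib 3.10.9.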

Additional observations from a re-analysis of the deposited data

Results flagged for a closer look

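In the 5 supplemented samples, 11 of 127 genes examined had 1 sample whose gap to its nearest neighbour exceeded Dixon's 95% critical value (0.71 of the range). Chance gives about 5% of groups such a gap. Atad2 was at 8.38 in supplemented 2, against 8.60 to 8.65 in the others. Med1 was at 8.06 in supplemented 2, against 8.30 to 8.38 in the others. Flt1 was at 9.35 in supplemented 5, against 9.05 to 9.09 in the others. Slc34a2 was at 7.55 in supplemented 5, against 8.67 to 9.12 in the others. Dpt was at 9.58 in supplemented 3, against 10.27 to 10.49 in the others. Hs6st1 was at 8.17 in supplemented 1, against 8.74 to 8.84 in the others. Rdh7 was at 9.72 in supplemented 5, against 10.85 to 11.26 in the others. Dgat1 was at 9.29 in supplemented 1, against 8.86 to 8.98 in the others. Atp5pd was at 11.21 in supplemented 1, against 14.13 to 14.31 in the others. Sod2 was at 9.53 in supplemented 1, against 10.98 to 11.21 in the others. Slc4a2 was at 9.48 in supplemented 1, against 9.02 to 9.15 in the others. Of these, Atad2, Med1 and Flt1 passed the test between depletion and supplemented rats. In each, all supplemented samples lay above the depletion range, the sample apart included. Supplemented 1 was the sample apart for Hs6st1, Dgat1, Atp5pd, Sod2 and Slc4a2. No depletion group could be examined, with 3 samples.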

How the results depend on the processing

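Against 20 probes in the report, 11 passed without background correction, 21 with the deposited background-subtracted intensity, 223 with median scaling, 89 with cyclic loess, 60 with the authors' table, 60 with no filter, 50 with the background limit as filter, 40 with defective spots kept, 86 with near-identical arrays kept separate, 8 with only the depletion and supplemented samples, 964 with array weights (456 higher, 508 lower), 15 with robust moderation and 97 at a threshold of 0.1. Of the 8 probes with only the depletion and supplemented samples, 4 were among the 20, those of Igfbp3, Flt1, Hacl1 and Ddhd1. Rarb, Pfkfb1 and Lss did not pass in that fit. The array set gave 1439 probes as a fixed block and 0 as a random block. Leaving out 1 depletion or supplemented sample gave 2 to 25 probes, and leaving out deficient 6, an alternative chosen after seeing the data, gave 151. The replicate block gave 16 probes (8 higher, 8 lower), 10 of them among the 20; the numbers are not known to pair rats.

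Of the values of named genes that passed, 261 kept their sign and side of the threshold, 146 no longer passed and 1 reversed (Ntrk3, 0.767 with defective spots kept). Of the values of other named genes and the unnamed probes, 2494 kept both, 174 newly passed, 23 no longer passed and 68 reversed. List members described in the report outside the rule for named genes were not recomputed here. With the array set as a fixed block, the reversed genes were Stk38 (-0.651), Snrpd1 (0.188), Arhgef26 (1.29), Acads (-0.45), Acsl1 (-0.471), Lpin1 (0.193), Chkb (-0.354), Atp5pb (-0.102), Gabpb1 (-0.27), Vegfb (-0.147), Tmed10 (-0.226), Cdkn1a (-0.426), Cdkn2c (-0.25), Cyp1a2 (0.413), Cyp2a2 (-0.189), Rps29 (-0.00782), Cebpd (-0.106), Fgb (0.6), Nr4a2 (0.209), Apoa1 (0.0319), Alb (0.0144), Lyz2 (0.447), Tie1 (-0.0403), Slc4a2 (-0.365), Epcam (-0.321), Tfam (0.573) and Cry2 (-0.711). With the random block they were Arhgef26 (0.231), Acads (-0.143), Acsl1 (-0.0153), Chkb (-0.0172), Gabpb1 (-0.0392), Tmed10 (-0.00386), Cdkn2c (-0.11), Cyp1a2 (0.0765), Nr4a2 (0.0217), Lyz2 (0.00955), Slc4a2 (-0.0617), Epcam (-0.0696), Tfam (0.262) and Cry2 (-0.309). With median scaling they were Prdx1 (0.0457), Sar1b (0.00577), Rpl21 (0.098), Cd14 (0.0132), C1qb (0.118), Sparc (0.00281), Alas2 (0.1) and Tfam (0.182), and with array weights Bckdhb (-0.13), Cd14 (0.0315), C1qb (0.0968), Alas2 (0.0253), Tfam (0.102) and Cry2 (-0.323). Tfam (0.0259) reversed with the authors' table and Tfam (0.0306) with arrays kept separate. With 1 sample left out, the genes that changed sign ranged as follows: C1qb (-0.278 to 0.0162), Aif1 (-0.0733 to 0.102), Vim (-0.241 to 0.0475), Alas2 (-0.137 to 0.0254), Txn1 (-0.0128 to 0.0863), Tfam (-0.0902 to 0.137) and Cry2 (-0.113 to 0.37). The cause of these shifts was not tested. Of list medians, 490 stayed within the spread and 86 moved. The 3 depletion arrays limit the precision.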
